A study of Drosophila melanogaster with 3 samples.

Results

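The genes for the proteins of the cytoplasmic ribosome were described by the binding of Jarid2 at their promoters in Drosophila melanogaster embryos. They were the protein-coding genes of the Ensembl BDGP6 annotation whose symbol starts with RpL or RpS followed by a digit or P, 92 of 13945 protein-coding genes. Of these, 50 encode proteins of the large subunit (RpL), 38 proteins of the small subunit (RpS) and 4 carry the RpLP symbols of the ribosomal stalk. The symbol rule does not take in sta, which encodes the small subunit protein SA, or Rack1. It does take in RpL7-like, RpL24-like and RpLP0-like, whose yeast relatives act in ribosome assembly. Chromatin had been immunoprecipitated with an antibody against green fluorescent protein (GFP) from whole embryos aged 0 to 24 h, of mixed sex, of a transgenic strain that stably expresses Jarid2 with GFP fused to its C terminus. All 3 biological replicates belonged to this 1 group, and the chromatin had been sonicated to 200 to 800 bp. The embryos are mixtures of all tissues and stages of embryogenesis, so a peak does not show in which cells a promoter was bound. No sample from embryos without GFP was analysed here, and the part of such background in the signal was not tested.

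Ribosomes are built from many proteins in fixed proportions, and their genes are among the most active in growing cells. In flies most of them share an unusual core promoter, the TCT initiator, at which transcription starts at a C within a run of pyrimidines and which uses the TBP-related factor TRF2 in place of the TATA-binding protein. Jarid2 is a DNA-binding protein of the jumonji family that associates with Polycomb repressive complex 2, which methylates histone H3 at silent developmental genes.

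The following promoter sequences are shown for the core of the TCT initiator close to the start, or its lack there, in genes that differed in their peaks. They come from the RefSeq copy of the Release 6 reference assembly, which shares coordinates with dm6, run 5′ to 3′ on the strand of the gene, and cover 50 bases before an annotated start and 25 bases from the start onward. Capitals mark CTTT, the core of the TCT initiator, where its C lies within 5 bases of the start. CTTT farther from the start, as in RpL35A, is not marked. For a gene with several starts, a start with this core was preferred, so at such genes the core is shown by choice. The first 3 belong to ribosomal protein genes with strong peaks: RpS27 (chr3R:25247448-25247522, minus strand), RpL7 (chr2L:10201050-10201124, plus strand) and RpL14 (chr3L:8600956-8601030, plus strand).
RpS27: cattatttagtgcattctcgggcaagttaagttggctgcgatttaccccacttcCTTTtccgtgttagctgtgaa
RpL7: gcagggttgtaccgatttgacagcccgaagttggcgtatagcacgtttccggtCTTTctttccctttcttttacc
RpL14: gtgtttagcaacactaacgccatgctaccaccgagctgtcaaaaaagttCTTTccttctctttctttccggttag
The next 3 had strong peaks in replicates 1 and 3 and none in replicate 2: RpL13 (chr2L:9967280-9967354, plus strand), RpL36 (chrX:629392-629466, minus strand) and RpL35A (chr3R:5467077-5467151, minus strand).
RpL13: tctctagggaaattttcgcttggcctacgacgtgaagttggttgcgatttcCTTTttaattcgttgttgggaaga
RpL36: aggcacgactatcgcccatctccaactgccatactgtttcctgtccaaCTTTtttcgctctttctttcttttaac
RpL35A: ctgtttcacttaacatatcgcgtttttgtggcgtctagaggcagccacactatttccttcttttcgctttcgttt
No list had a peak for the following pair, RpL21 (chr2L:22247809-22247883, minus strand) and RpS27A (chr2L:10408302-10408376, plus strand), although both carry the core.
RpL21: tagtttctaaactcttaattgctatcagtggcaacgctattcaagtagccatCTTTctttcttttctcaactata
RpS27A: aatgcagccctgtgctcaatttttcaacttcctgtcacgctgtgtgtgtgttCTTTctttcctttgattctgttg
The last pair shows copies of 1 duplicated gene: RpS19a (chrX:16637844-16637918, plus strand) had a peak on its start and RpS19b (chr3R:23933506-23933580, minus strand) did not.
RpS19a: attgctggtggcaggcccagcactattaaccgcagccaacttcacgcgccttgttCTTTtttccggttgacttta
RpS19b: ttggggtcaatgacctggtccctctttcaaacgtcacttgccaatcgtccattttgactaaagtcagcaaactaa
A match of these letters describes the sequence and shows neither that a factor binds there nor that transcription starts there.

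Each replicate was represented by a list of 30000 peaks and the series by a list of 5464 reproducible peaks, thresholded by irreproducible discovery rate (IDR), which were the strongest peaks of the pooled replicates. The signal of a peak is the authors' own value on a scale of its own in each list, so peaks were compared by their rank within a list, where rank 1 is the strongest. For counts in single replicates the 5464 strongest peaks of each were used. A summit within 1000 bp of any annotated start of a gene was counted as its promoter peak. Where a gene has several starts, as for 44 of the 92 ribosomal protein genes, distances are to the nearest of them. The lists give no read numbers, so the depth of the replicates is unknown.

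Most ribosomal protein promoters carried a Jarid2-GFP peak, and the summit usually sat on the start itself. In the replicates 74, 67 and 71 of the 92 genes had a promoter peak, which is 80.4%, 72.8% and 77.2% (76.8% ± 3.82, SD, n = 3). Over all protein-coding genes the shares were 27.2%, 24.5% and 26.5% (26% ± 1.37, SD, n = 3). The lowest share of the ribosomal protein genes in any replicate was thus above the highest share of all genes. In the reproducible list 69 of the 92 had a promoter peak (75%), beside 25.5% of all protein-coding genes. A peak among the strongest of all 3 replicates was found for 61 of the 92, beside 20.1% of all genes.

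Ribosomal protein genes also stood above all genes when only summits close to a start were counted. A summit within 100 bp of a start was found for 66, 56 and 58 ribosomal protein genes in the replicates (65.2% ± 5.75, SD, n = 3), beside 15.7% ± 0.958 of all genes. In the reproducible list the count was 59 of 92 (64.1%), beside 15.8% of all genes. Of the genes with a reproducible promoter peak, 85.5% of the ribosomal protein genes had a summit this close, and 62% of all protein-coding genes. No test was made of these differences, since the genes had been proposed with results of these data known.

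The mitochondrial ribosome, which has protein genes of its own, and the translation factors gave other values. Of 73 mitochondrial ribosomal protein genes (mRpL and mRpS symbols), 16 had a reproducible promoter peak (21.9%; replicates 23.3% ± 4.75, SD, n = 3). Only 1 of the 73 had a summit within 100 bp (1.37%), and the median distance of the 16 summits from the start was 407 bp. When each summit was given only to the coding gene with the nearest start, 3 mitochondrial ribosomal protein genes kept a peak. Of 52 genes for translation initiation and elongation factors (eIF and eEF symbols), 14 had a promoter peak (26.9%; replicates 30.1% ± 5.88, SD, n = 3) and 8 had a summit within 100 bp (15.4%). Both groups lay near the share of all genes for promoter peaks, and the mitochondrial group below it for summits within 100 bp.

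**Figure D1:**
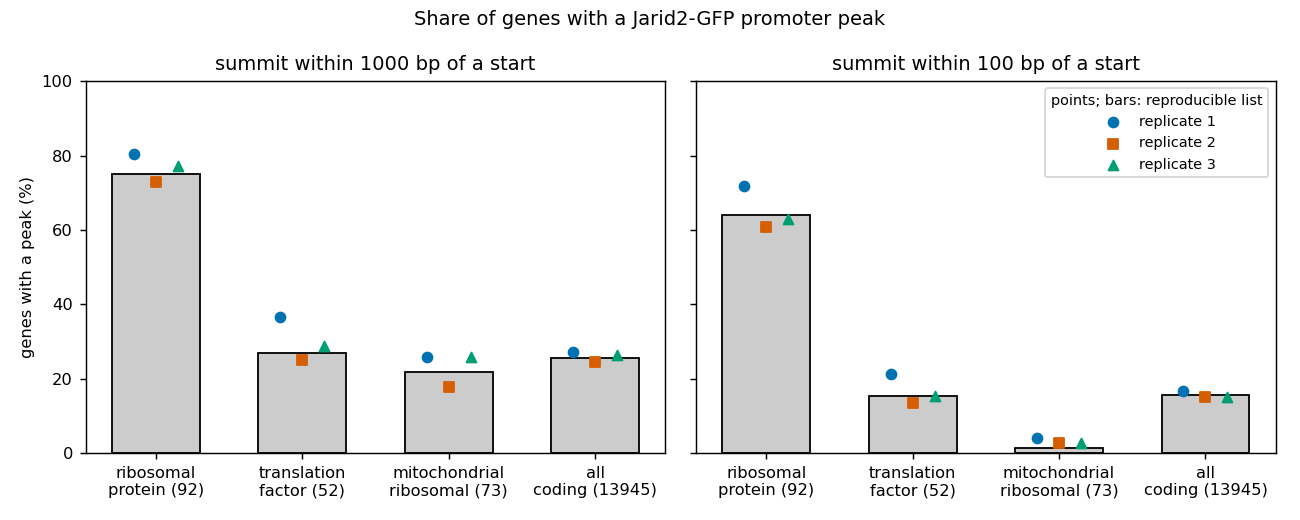
Share of genes (%) with a Jarid2-GFP promoter peak, within 1000 bp of a start on the left and within 100 bp on the right, for 4 groups of genes with their number in brackets. Bars are the reproducible list and points the 3 replicates; the ribosomal protein genes stand at 72.8% to 80.4% in the replicates on the left, above the other groups.

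The peaks were of middling to high strength. In the replicates the median rank of the strongest promoter peak of each bound ribosomal protein gene was 1549, 1732 and 1863 (1715 ± 158, SD, n = 3), and it was 1708 in the reproducible list, beside 1957.5 over all bound protein-coding genes. A peak among the strongest 2732 was found for 50 of the 92 genes (54.3%), beside 16.4% of all protein-coding genes. Only RpS27 and RpL7 had one among the strongest 546 (2.17% of the 92), beside 4.13% of all genes. Of the genes with a promoter peak, the share among the strongest 2732 was 72.5% for ribosomal protein genes and 64.2% for all genes, and among the strongest 546 it was 2.9% and 16.2%.

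The strongest peak belonged to RpS27 (FBgn0039300), which encodes a small subunit protein. It ranked 398, 539 and 205 in replicates 1, 2 and 3 and 362 in the reproducible list, where the authors' signal was 1076. The peak covered chr3R:25247393-25247662 in dm6, and its summit lay 2 bp downstream of a start, in the 5′ UTR. In the replicates the summit lay 12, 4 and 1 bp upstream of a start. RpS27 and RpL7 each have 2 annotated starts, and their summits lay nearer to the start without the TCT core than to the one whose sequence is shown.
RpL7 (FBgn0005593), for a large subunit protein, ranked 311, 595 and 270 in the replicates and 415 in the reproducible list (signal 1025). Its peak, chr2L:10200912-10201179, had its summit 31 bp downstream of a start, and in the replicates 37, 32 and 32 bp downstream. RpL14 (FBgn0017579), also of the large subunit, ranked 445, 789 and 494, and 560 in the reproducible list (signal 888), with the peak at chr3L:8600830-8601087. Its summit lay 44 bp upstream of a start, in intergenic sequence, and in the replicates 44, 21 and 41 bp upstream. For all 3 genes replicate 2 gave the weakest rank.

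Of the others among the 10 strongest, 4 had a summit within 100 bp of their start. RpL41, for the smallest protein of the ribosome, ranked 588, 849 and 526 in the replicates (summit 53 bp upstream in the reproducible list). RpL32, whose transcript is widely used as a reference in fly expression studies, ranked 823, 989 and 490 (75 bp upstream). Replicate 2 was again the weakest for both. RpL23A ranked 757, 1008 and 547 (91 bp upstream). RpL30 ranked 804, 556 and 1529 (28 bp upstream), and here replicate 3 was the weakest. RpL26 and RpS28a had their summits at the start of a neighbouring gene, as given further on.

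At the other end of the list the replicates differed widely for some genes. RpL40, which encodes a fusion of ubiquitin with a large subunit protein, had the weakest reproducible peak (rank 5152; 11740, 4418 and 4625 in the replicates; 95 bp downstream). RpS2 followed (4753; 4422, 4039 and 8875; 89 bp downstream), then RpS19b (4321; 5123, 5105 and 4030) and RpL35 (4166; 4283, 3535 and 4824; 12 bp upstream). RpS26 was the only ribosomal protein gene with a reproducible peak (rank 4132) that was among the strongest 5464 of no replicate. It ranked 5529 in replicate 1 and 24909 in replicate 3, and replicate 2 had no peak at its promoter. Of the 69 genes with a reproducible peak, 61 were among the strongest in all 3 replicates and 7 in 2 of them.

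**Figure D2:**
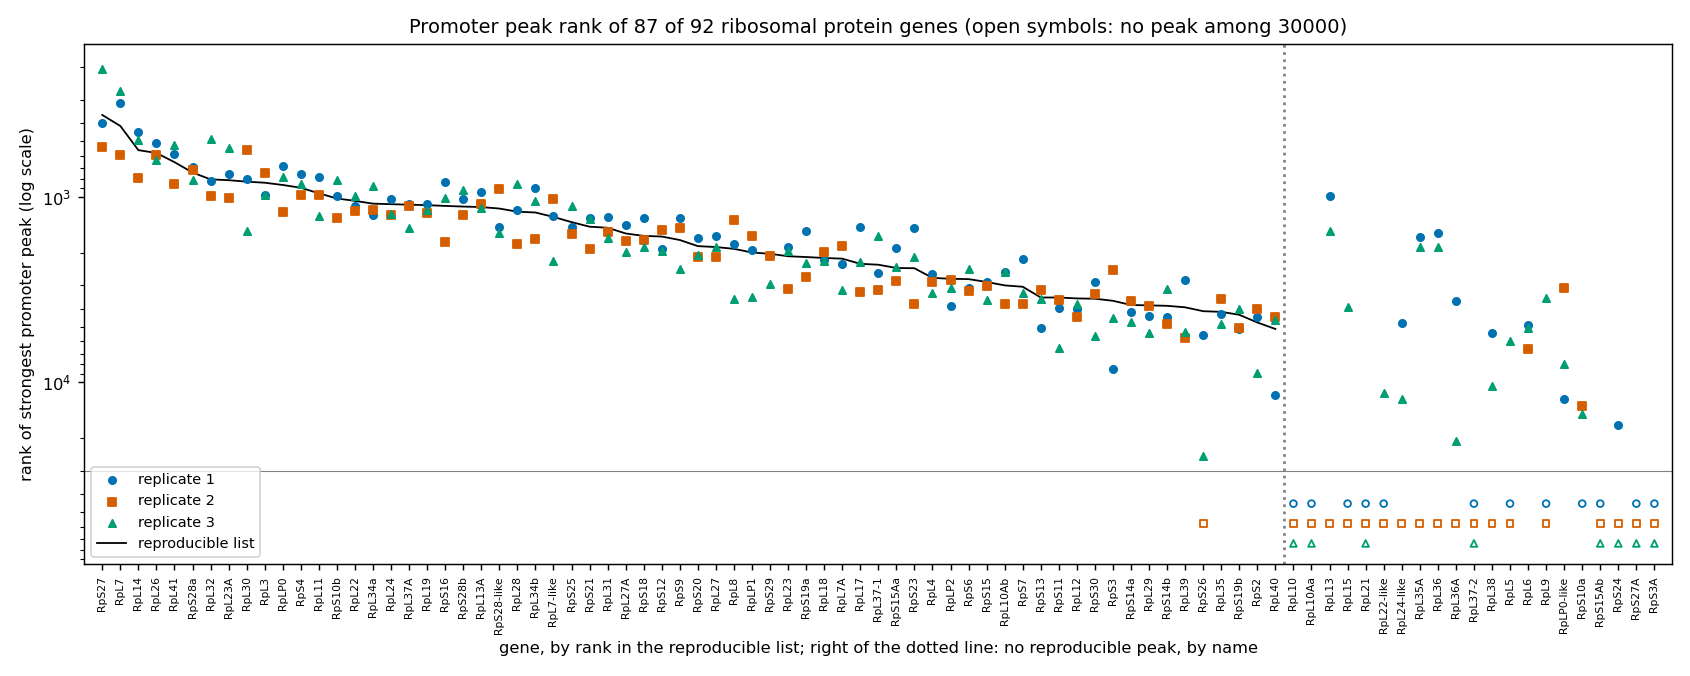
Rank of the strongest promoter peak of 87 of the 92 ribosomal protein genes (log scale, strongest at the top) in replicate 1 (circles), 2 (squares) and 3 (triangles), with the reproducible list as a line. Open symbols below the horizontal line at 30000 mean no promoter peak in that replicate; right of the dotted line are 21 genes without a reproducible peak.

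The summits of ribosomal protein genes sat at a different place in the promoter from those of other genes. The median distance from the start was 26, 32 and 32 bp in the replicates (30 ± 3.46, SD, n = 3) and 29 bp in the reproducible list, beside 84 bp for all bound protein-coding genes. Among summits within 100 bp, the median position of the ribosomal protein genes was 9, 4 and 12.5 bp upstream of the start in the replicates and 4 bp upstream in the reproducible list. For the 2146 other genes with such a summit it was 50 bp downstream, and 49, 45 and 51 bp downstream in the replicates. Of the ribosomal protein summits 57.6%, 57.1% and 69% lay upstream of the start in the replicates (61.2% ± 6.7, SD, n = 3), beside 19.7% ± 1.46 of the others. In the reproducible list these shares were 54.2% (32 of 59) and 17.4% (374 of 2146). In each replicate the share of the ribosomal protein genes was above that of the others. A position near the start was not particular to ribosomal protein genes, though related groups had few such summits. For 8 translation factor genes in the reproducible list the median was 22 bp upstream (replicates 13 and 3 bp downstream and 25.5 bp upstream). For mitochondrial ribosomal protein genes it was 66 bp downstream (1 gene), and 3 bp downstream, 8 bp upstream and 4 bp downstream in the replicates.

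The position relative to the nearest start held between replicates. A summit within 100 bp was present in all 3 replicate lists, taken whole, for 56 ribosomal protein genes. Their signed distances from the nearest start spanned a median of 22.5 bp between replicates, and for 45 of them at most 50 bp. The same median over 2340 protein-coding genes was 27 bp. For a gene with several starts the nearest one can differ between replicates, so the summits themselves can lie farther apart. Those of RpL17 lay at chrX:6744307, 6744175 and 6744197, which is 69, 4 and 26 bp upstream of the nearest start. Of the 69 strongest reproducible summits, 32 lay in the gene's own 5′ UTR, 25 in intergenic sequence, 4 in an intron of the gene, 5 in the 5′ UTR of another gene and 3 in an intron of another gene. No such split over all protein-coding genes is given here, so it cannot be called particular to ribosomal protein genes. The limit of 100 bp separated RpS20, with its summit 100 bp upstream, from RpS3, whose summit was 103 bp downstream.

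**Figure D3:**
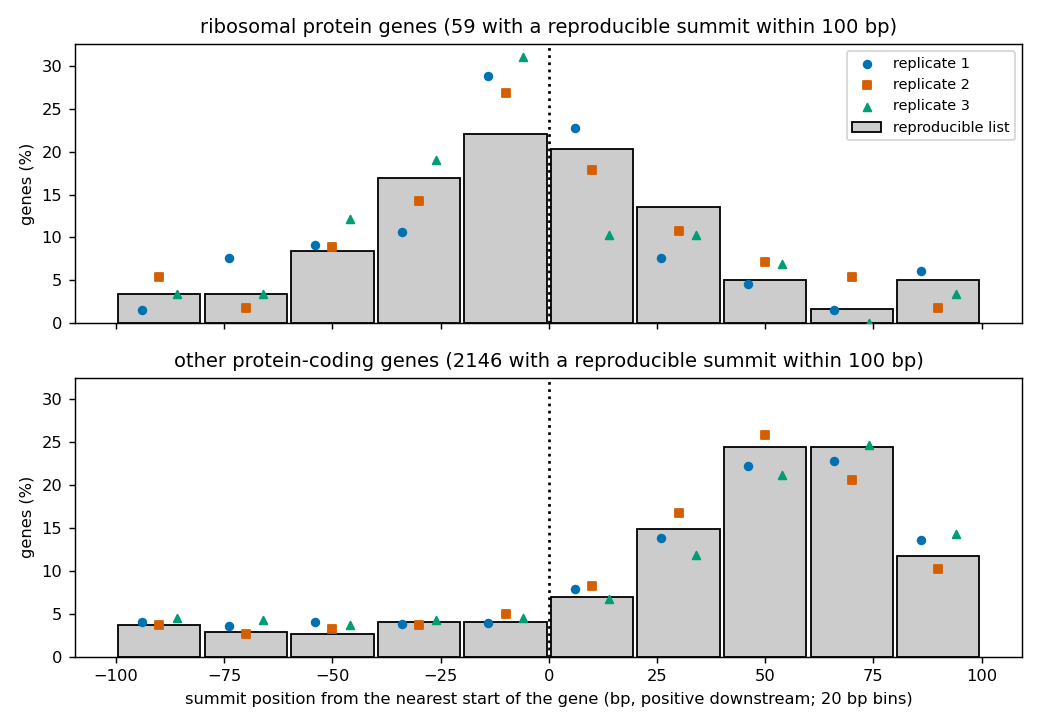
Position of the summit relative to the nearest start of the gene (bp, positive downstream, in bins of 20 bp), as a share (%) of genes with a summit within 100 bp, for ribosomal protein genes above and other protein-coding genes below. Bars are the reproducible list and points the replicates; ribosomal protein summits centre on the start, with a median 4 bp upstream, and the others on 50 bp downstream.

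Large and small subunit genes were bound about as often. Of the 50 large subunit genes 35 had a reproducible promoter peak (70%; replicates 82%, 68% and 82%), and of the 38 small subunit genes 31 (81.6%; replicates 78.9%, 76.3% and 71.1%). The replicate means, 77.3% ± 8.08 and 75.4% ± 4.02 (SD, n = 3), differed by less than the spread between replicates. The median rank was 1214 for the large and 2110 for the small subunit in the reproducible list, and 1416 ± 212 and 2004 ± 146 over the replicates. Their summits lay at different places in every replicate. The median position over all promoter summits was 18, 17 and 20 bp upstream for the large subunit and 4.5, 8 and 3 bp downstream for the small. Among summits within 100 bp, 72.4% ± 7.16 of those of the large subunit lay upstream of the start and 41.7% ± 4.93 of those of the small subunit (SD, n = 3). Of the stalk genes RpLP0, RpLP1 and RpLP2 had reproducible peaks, with summits 9 bp upstream, 1 bp downstream and 23 bp upstream.

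In 13 families the genome holds more than 1 copy of a ribosomal protein gene, 27 genes in all, and in most families 1 copy carried the peak. In the reproducible list 10 of the 13 families had exactly 1 copy with a summit within 100 bp, 2 had both copies and 1 had none. These counts take RpL7-like, RpL24-like and RpLP0-like, the relatives of assembly factors, as copies, and none of the 3 had such a summit. Without them, 7 of 10 families had exactly 1 copy with a summit this close, and 14 of 24 duplicated genes had one (58.3%). Of the 27 genes 14 had such a summit (51.9%; replicates 53.1% ± 5.66, SD, n = 3), beside 45 of the 65 single-copy genes (69.2%; replicates 70.3% ± 5.82). Over genes with any promoter peak the median rank was 1214 for the duplicated and 1853.5 for the single-copy genes (replicates 1408 ± 139 and 1790 ± 162, SD, n = 3). Reads that match several copies can be lost or shared in mapping, and how the authors treated them is not given in the sources used here.

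Where a family holds a plain symbol and a copy named -like, the plain one carried the peak. RpL7, RpL22, RpL24 and RpLP0 had summits within 100 bp in all 3 replicates, at ranks of 311, 595 and 270 for RpL7, 1125, 1190 and 992 for RpL22, 1021, 1258 and 1244 for RpL24, and 684, 1208 and 777 for RpLP0. Of their partners RpL7-like, RpL22-like and RpLP0-like had none in any replicate. RpL24-like had 1 at rank 4760 in replicate 1 and 12348 in replicate 3, and none in replicate 2.
RpS10b (995, 1294 and 813), RpS15Aa (1881, 2846 and 2377), RpS19a (1532, 2687 and 2286) and RpS28b (1027, 1471 and 918) had one in every replicate. Their copies RpS10a, RpS15Ab, RpS19b, RpS28a and RpS28-like had none in any. RpS10a, RpS19b and RpL22-like are known for expression in the germ line. RpL10Ab (3266, 3787 and 2547) and RpL37-1 (2560, 3166 and 1622) were likewise bound close to the start in every replicate, and RpL10Aa and RpL37-2 in none.

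RpL34 and RpS14 had both copies bound. RpL34b ranked 900, 1677 and 1047, and RpL34a 1260 and 872 in replicates 1 and 3; in replicate 2 its summit lay 105 bp upstream, just past the limit, at rank 1170. RpS14a and RpS14b, which lie next to each other on the X chromosome, had weak peaks, at 4151, 3635 and 14064 and at 4417, 4834 and 3146. In replicate 3 the strongest promoter summit of RpS14a, at rank 4742, lay 144 bp upstream.

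**Figure D4:**
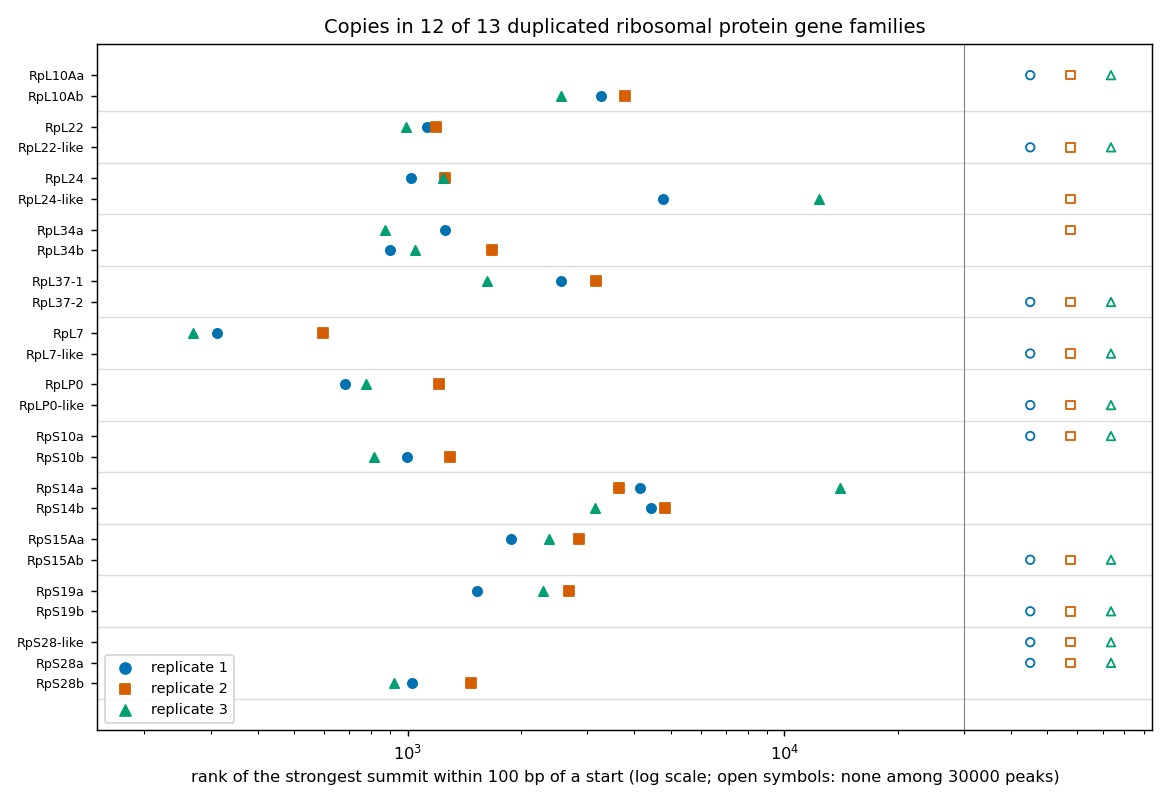
Rank (log scale, strongest at the left) of the strongest summit within 100 bp of a start for each copy in 12 of the 13 duplicated families, in replicate 1 (circles), 2 (squares) and 3 (triangles). Open symbols right of the line at 30000 mean no such summit among the 30000 peaks; in most families 1 copy has filled symbols and the other open ones.

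For 10 genes the promoter peak was not within 100 bp of their own start, and for 7 of these its summit was nearer to another protein-coding gene. The summit of RpL26 (rank 580; 514, 594 and 630 in the replicates) lay 682 bp upstream, 100 bp from the start of the divergent gene CG3902. That of RpS28a (739; 692, 718 and 815) lay 528 bp downstream, 101 bp from the start of Mgat2, and that of RpS28-like (1156; 1459, 904 and 1563) 766 bp downstream, 101 bp from the start of numb, a regulator of asymmetric cell division. These 3 peaks were in the 5′ UTR of the other gene in each case. In replicate 1 RpL26 also had a weaker summit 3 bp downstream of a start of its own, at rank 2672. The summit of RpL7-like (1283; 1273, 1021 and 2217) was 54 bp from the start of JhI-21. The RpS19b summit was 850 bp from its own start and 468 bp from CG5854. Such peaks count for the ribosomal protein gene by distance only. RpL23 and RpS3 had summits 114 bp upstream and 103 bp downstream that were nearest to their own start. In total 62 of the 69 strongest summits were nearest to the ribosomal protein gene itself among coding genes, and the 69 summits were all distinct. With each summit given only to the coding gene with the nearest start, 62 of these 69 genes kept a promoter peak. Over all protein-coding genes 2905 of 3556 did.

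The 23 genes without a reproducible peak were of several kinds. For 7 of them no replicate had a promoter peak among its 30000: RpL10, RpL10Aa, RpL21, RpL37-2, RpS15Ab, RpS27A and RpS3A. RpS27A encodes a fusion of ubiquitin with a small subunit protein, and RpS3A is the only ribosomal protein gene on chromosome 4. On that chromosome 6 of 80 protein-coding genes (7.5%) had a reproducible promoter peak. RpL21, RpS27A, RpS3A and RpL37-2 carry the TCT core, so its presence did not go with a peak in every case. A further 6 had a peak in 1 replicate, among them RpL15 (rank 3910 in replicate 3), RpL9 (3525 in replicate 3), RpL5 (5957 in replicate 3), RpL22-like (11410 in replicate 3) and RpS24 (17011 in replicate 1). Weak peaks in all 3 replicates were present for genes such as RpL6 (4909, 6641 and 5063) and RpLP0-like (12255, 3081 and 7970). RpLP0-like ranked 5523 in the pooled list and so fell just outside the 5464 reproducible peaks. Of the 7 with a peak in 2 replicates, RpL24-like, RpL36A (3638 and 20808 in replicates 1 and 3), RpL38 (5391 and 10469 in replicates 1 and 3) and RpS10a (13476 and 14708 in replicates 2 and 3) were weak as well.

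The other 3 of these 7 had strong peaks in replicates 1 and 3. RpL13 ranked 987 and 1520, with summits 23 and 20 bp upstream of the nearer of its 2 starts, not the start whose sequence is shown. The nearer start lies 84 bp from the divergent start of Dref, the gene for the factor that binds the DNA replication-related element. RpL35A ranked 1637 and 1861 (15 and 50 bp downstream) and RpL36 1566 and 1863 (16 and 31 bp upstream). Neither replicate 2 nor the list of the pooled replicates had a peak at these promoters at any rank. In all, 4 of 49 ribosomal protein genes (8.16%) had a promoter peak among the strongest 2732 in replicates 1 and 3 and none in replicate 2, beside 4.96% of all genes (101 of 2036). In the same comparison for replicate 1 none of 39 was absent, and for replicate 3 none of 43. Over all genes 0 of 1909 and 1 of 1993 were absent from those replicates. Absences of this kind from replicate 2 were thus found at many other genes too, and what made them was not tested. The absence of these 3 genes from the reproducible list does not show that they were unbound.

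Ribosomal protein promoters differed in sequence from most promoters that carried a Jarid2-GFP peak. The TCT core (CTTT on the strand of the gene, its C within 5 bases of any annotated start) was present for 58 of the 92 genes (63%), beside 8.07% of all protein-coding genes and 5.48% of the mitochondrial ribosomal protein genes. The count depended on the starts and the distance allowed: with 1 start per gene it was 31 (33.7%, beside 5.64% of all genes), and with the C within 2 bases it was 20 (21.7%, beside 3.28%). With the C within 10 bases it was 76, for which no share over all genes is given here. A gene counted as without the core can thus hold it slightly farther from the start. Of the 58 genes with the core, 42 had a summit within 100 bp (72.4%), and of the 34 without it 17 (50%). Both were scored over any annotated start, so genes with several starts had more places to score on each. The core was present for 71.2% of the ribosomal protein genes with such a summit and 48.5% of those without. With the core scored at 1 start per gene these shares were 37.3% and 27.3%. Among other protein-coding genes 22.8% of those with the core and 14.9% of those without had a summit this close. Their summits kept to the downstream side with the core too, with a median of 53 bp downstream, where the median position of ribosomal protein genes with the core was -0.5 bp. Single-copy ribosomal protein genes had the core more often (70.8%) than duplicated ones (44.4%).

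Further motifs, none of which contains another, were searched on both strands from 250 bases before to 50 bases after any start. GAGAG, a sequence bound by the GAGA factor, which is linked to Polycomb targeting, occurred for 12 of the 59 ribosomal protein genes with a summit within 100 bp (20.3%; 21.2%, 19.6% and 24.1% in the replicates). It occurred for 1455 of the 2146 other genes with such a summit (67.8%; 64.8%, 68.9% and 65.1% in the replicates) and for 36.3% of all protein-coding genes. The replicate values of the 2 groups stood far apart. Among other genes 28.9% of those with GAGAG and 7.84% of those without had a summit within 100 bp, while among ribosomal protein genes these shares were 63.2% (of 19) and 64.4% (of 73). With or without a peak, GAGAG occurred for 20.7% of the ribosomal protein genes. It occurred for 17.8% of the mitochondrial ribosomal protein genes and 28.8% of the translation factor genes, so a low share was not particular to ribosomal protein genes.

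TATCGATA, the DNA replication-related element, which DREF binds, occurred for 28 ribosomal protein genes (30.4%), beside 10.2% of all protein-coding genes. GGTCACAC, here called Motif 1 and bound by M1BP, occurred for 15 (16.3%, beside 8.71%), and the E-box CACGTG also for 15 (16.3%, beside 5.3%). TATAAA, the letters of the TATA box, occurred for 47 ribosomal protein genes (51.1%), beside 51.2% of all protein-coding genes, shares that lay close together. These matches lay on either strand anywhere in the window, so they do not show a TATA box in its working place. With the window from 100 bases before the start the count was 14. In translation factor genes the DNA replication-related element occurred for 28.8%, Motif 1 for 17.3% and the E-box for 9.62%. In mitochondrial ribosomal protein genes these shares were 21.9%, 11% and 6.85%. The element and Motif 1 were thus about as frequent in translation factor genes as in ribosomal protein genes. Having the DNA replication-related element went with little difference in peaks: 67.9% of the ribosomal protein genes with it and 62.5% of those without had a summit within 100 bp. For Motif 1 the shares were 73.3% and 62.3%, for the E-box 66.7% and 63.6%, and for TATAAA 61.7% and 66.7%.

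**Figure D5:**
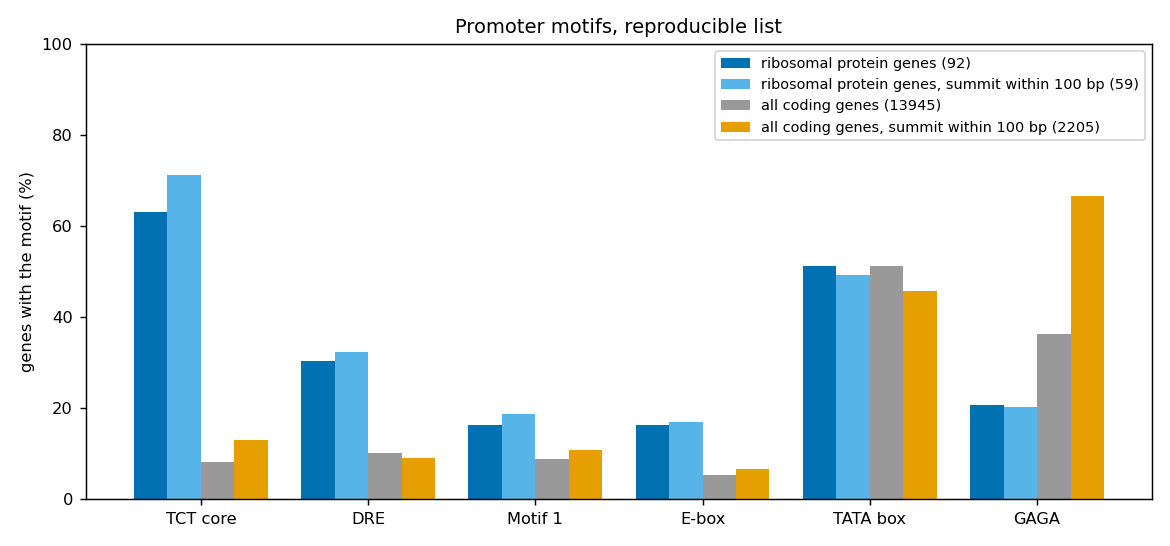
Share (%) of ribosomal protein genes (blue), of those with a reproducible summit within 100 bp (light blue), of all protein-coding genes (grey) and of those with such a summit (orange) whose promoter holds each motif. The TCT core is most frequent in ribosomal protein genes, at 63%, and GAGA (GAGAG) in all genes with a summit, at 66.5%, against 20.3% of the ribosomal protein genes with one.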

How the data were processed

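Peak lists from ChIP-seq of 3 biological replicates of Jarid2-GFP embryos were used on the dm6 build. Per the deposited notes, permissive lists of single and pooled replicates had been called with a control alignment, and an IDR threshold applied to them. The aligner and peak caller are not given in the sources used here. The signal of a peak, as deposited, has its own scale in each list, so ranks were compared. Depth is unknown, since the lists hold no read numbers, so no counting interval could be given.

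Genes and starts came from Ensembl release 115 (BDGP6.54) on 6 chromosomes, without transposon genes, and sequences from the Release 6 assembly. The summit is the peak start plus the summit offset of the list. A gene's strongest summit within 1000 bp of any start gave its rank, and the offset was taken on its strand from the nearest start. Replicate values are means ± SD of the 5464 strongest peaks of each replicate. The SD measures the spread between these replicates, and with 1 group there was no comparison between conditions and no test was run. Duplicated genes were those whose symbols differ only by a copy suffix.

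The genes, groups, motifs and comparisons were chosen with earlier results of these data known. Every ribosomal protein gene could be named. Some of these genes are not reported by name here and are in the counts only. Otherwise given in full were the 10 strongest, the 4 weakest, those without a reproducible peak, duplicated genes, those with a summit over 500 bp away and those absent from 1 replicate. Other genes are named where they share a summit or start. The assignment of summits was tested on simulated data, where 200 of 200 planted summits were recovered. Python 3.11.15, NumPy 2.4.6 and matplotlib 3.10.9 were used. Alternatives were other distances, starts, list lengths, single replicates, left-out replicates and motif settings. The whole pooled list and the nearest start of any gene type were added after seeing the data.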

Additional observations from a re-analysis of the deposited data

How the results depend on the processing

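The counts of ribosomal protein genes with a promoter peak, with a summit within 100 bp and by copy number stayed within 1.5 times the reported value under every alternative run for them. The strongest 2732 reproducible peaks lowered the count of small subunit genes with a peak to 19, of mitochondrial ribosomal protein genes to 10 and of all protein-coding genes to 2283, and the median rank of ribosomal protein genes to 1208. With 2732 peaks per replicate, 39 ribosomal protein genes had one in all 3. In the whole pooled list 6437 protein-coding genes had a promoter peak. Replicate 1 alone gave the median rank of 1549. With summits given to the nearest coding start, 3 mitochondrial ribosomal protein genes had a peak. With 1 start per gene, the median distance of the summits was 41 bp, and the TCT core was found for 31 and the E-box for 8 ribosomal protein genes. The core was found for 20 with its C within 2 bases. In a motif window from 100 bases before the start, TATAAA was found for 14 and GAGAG for 12. Divergent coding starts within 500 bp were present for 36. Apart from replicate 1 alone, these settings changed the peaks, starts or bases searched, the distance allowed or the gene given a summit. A shorter list, fewer starts, a smaller distance or window, or summits given only to the nearest start can only lower such counts. A longer list can only raise them, and leaving out the weaker peaks can only lower the median rank. The cause of the other shifts was not tested. Leaving out each replicate in turn left 62 to 63 ribosomal protein genes with a promoter peak. No paired analysis was possible because the series has 1 group and no test. The reproducible list was made from the same replicates, so their support of it is not independent, and a missing peak cannot be told from low depth.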

Other observations

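Of the 92 ribosomal protein genes 55 had the divergent start of another coding gene within 1000 bp upstream (59.8%, beside 36.2% of all protein-coding genes), and 36 within 500 bp (39.1%, beside 27.4%). Of the 55 genes 45 had a promoter peak (81.8%), against 24 of the other 37 (64.9%), and over all protein-coding genes these shares were 30.7% and 22.6%. Some of the 45 peaks, as for RpL26, RpL7-like and RpS19b, lay nearer to the neighbour. A summit within 100 bp was found for 37 (67.3%) and 22 (59.5%), and for 13.8% and 17% of all protein-coding genes. Small nucleolar RNA (snoRNA) genes guide the modification of ribosomal RNA. Of the 28 ribosomal protein genes with a snoRNA within their span on the same strand, 22 had a summit within 100 bp (78.6%), and of the 64 without, 37 (57.8%). Over all protein-coding genes the shares were 50% (42 of 84, the ribosomal protein genes included) and 15.6%. None of these differences was tested.

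On the X chromosome 13 of 14 ribosomal protein genes had a reproducible promoter peak, on 3L 12 of 14, on 3R 16 of 23, on 2L 13 of 19 and on 2R 15 of 21. The shares of all protein-coding genes with one were 23.5%, 27%, 25.4%, 24.9% and 26.8% in the same order. A promoter with more than 1 reproducible summit, for which no share over all genes is given here, was found for 9 ribosomal protein genes. RpL10Ab was one of them: its second summit, 988 bp upstream (rank 3568), lay beside the one 17 bp upstream (rank 3000), and in replicate 1 the far summit was the stronger, at ranks of 2527 and 3266.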
